A study of Mus musculus with 21 samples.

Results

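The 100 genes described here were those whose array signal was highest in secondary follicles, the stages with 2 and with several layers of granulosa cells. For each probe with a gene symbol, the score was the lower of the mean log2 values of the TLS and MLS stages minus the highest of the means of the other 5 stages, on the deposited values. A probe had to have a detection p-value under 0.05 on all 6 secondary arrays, 1 probe was kept per gene, and the 100 highest scores of 7422 scored genes were taken, out of 15548 genes with a symbol on the array. The members were thus selected on the stage means of these arrays, and the secondary peak itself is given below as a description, with no test.

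Expression was measured on 21 Illumina arrays, 3 for each of 7 stages of follicle growth in female CD1 mice, an outbred strain. The stages were whole ovaries of postnatal day 3 (PMD3) and day 4 (PMD4), isolated primary follicles of 70 to 90 µm from day 10 (PRIMARY), secondary follicles with 2 layers of 100 to 130 µm from day 12 (TLS), multilayered secondary follicles of 150 to 180 µm from day 16 (MLS), preantral follicles of 200 to 300 µm from day 18 (PREANTRAL) and antral follicles of 400 to 600 µm from day 20 (ANTRAL). The antral follicles came from mice primed with the gonadotropin PMSG, so priming, age and size cannot be told apart there, and no stage carried a genetic change. Follicles of a stage were pooled and 3 samples drawn from the pool, so the p-values below rest on differences among samples that may be technical replicates. The labels disagree in places: PREANTRAL repeat 2 carries the source name, day and size of the antral stage, PRIMARY repeat 3 carries the stage tag of day 3 ovary, PRIMARY repeat 3 and TLS repeat 2 name the ovary as tissue, and ANTRAL repeat 2 is described as repeat 3. Groups follow the sample titles, and counts of members are also given without PREANTRAL repeat 2, PRIMARY repeat 3 or TLS repeat 2. Most values of single genes are given with those arrays only.

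A secondary follicle is an oocyte in its growth phase, wrapped in dividing granulosa cells and a basement membrane. It recruits theca cells from the surrounding stroma and, with them, its first capillaries. The oocyte makes nearly all of its stored messenger RNA during growth, and granulosa cells feed it through gap junctions. Growth to this point needs no surge of gonadotropin. In pooled follicles, fewer cells of a type and less RNA per cell cannot be told apart.

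Scores of the members were small. They lay between 0.05 and 0.53 log2 units with a median of 0.09, where the spread between arrays of a stage, as a pooled SD, had a median of 0.16 over the members. The score was above the gene's own pooled SD in 30 of 100 members, above 0.25 in 9 and above 0.5 in 2, Angptl1 and Tmem100. Of the 7422 scored genes, 236 had a score above 0, or 3.18%. The same score for other neighbouring pairs was above 0 in 19.7% of genes for PMD3 and PMD4, 4.52% for PMD4 and PRIMARY, 13.7% for PRIMARY and TLS, 10.0% for MLS and PREANTRAL and 21.6% for PREANTRAL and ANTRAL, over 6989 to 7804 genes each. The gene ranked 100 had a score of 0.77, 0.08, 0.34, 0.23 and 0.39 in those pairs, in that order, against 0.05 in the secondary pair. The limit fell in a dense stretch of values: Cphx1, Brd2 and Ctdspl had scores of 0.0559, 0.0544 and 0.0537 just inside it, and Zdhhc14, Kcnk1 and Txndc12 had 0.0534, 0.0533 and 0.0530 just outside.

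**Figure D1:**
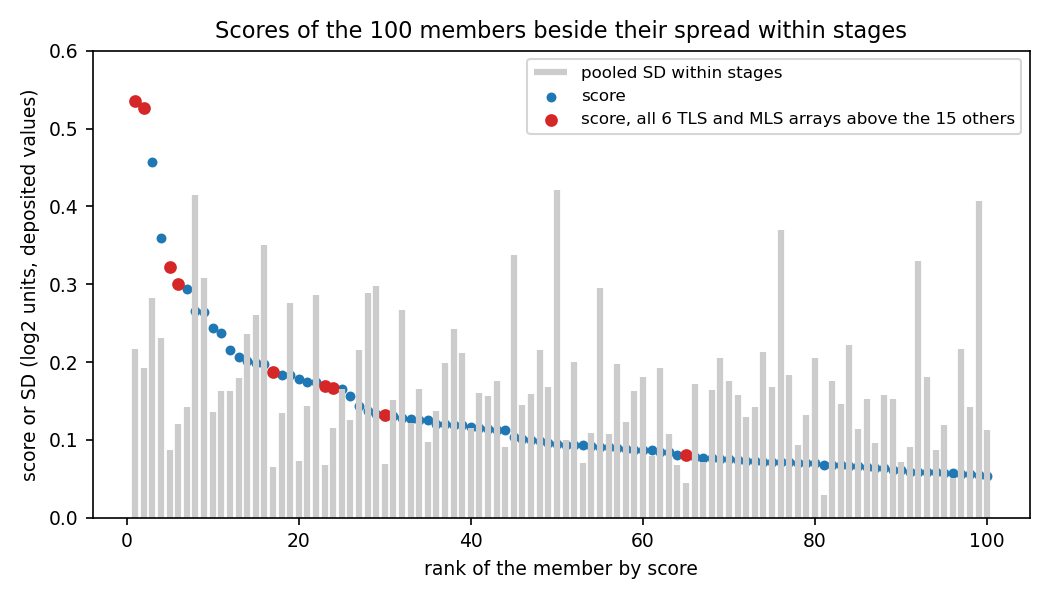
Score of each of the 100 members (points, log2 units of the deposited values) by rank, beside the pooled SD of the same gene within stages (grey bars). Red points mark the 9 members whose 6 secondary arrays all lay above the 15 others, and the score exceeded the SD in 30 members.

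In 9 members all 6 TLS and MLS arrays lay above all 15 other arrays on the deposited values. Among all 7422 scored genes 9, or 0.121%, had this pattern, and they were these 9 members. The rule used this contrast, so nothing is read from that share. The genes were Angptl1, Tmem100, Aqp9, Stard8, Atg13, Pate14, Apcdd1, Ptprg and 4930524B15Rik. With the scanner intensities background-corrected with the normexp method and quantile-normalised, the scale of all levels below, Apcdd1 left this list and Cnst entered it. On that scale the median score was 0.14, 98 of 100 scores were above 0, and Aqp9 was the single member more than 2-fold above its highest other stage, at 2.26-fold. On the deposited values that chose the members, the stage next in level after the secondary pair was PRIMARY for 38 members, PREANTRAL for 28, ANTRAL for 13, PMD3 for 12 and PMD4 for 9. On the normalised intensities the counts were 37, 30, 12, 11 and 10, in that order. There the lowest stage was ANTRAL for 47 members, PMD3 for 22 and PMD4 for 18.

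Angptl1, Tmem100 and Stra6 had the 3 highest scores. They were placed in a group of 15 secreted, matrix and receptor proteins, drawn after the values were seen, with Tmem100 counted in as a membrane protein. The next of the group, Flrt3, had rank 15, and the share of such proteins among all scored genes was not counted. Angptl1, a secreted protein of the angiopoietin-like family, had the highest score. Its log2 levels were 8.59, 8.70 and 8.60 in PMD3, 9.16, 8.85 and 9.12 in PMD4, 9.61, 9.03 and 9.37 in PRIMARY, 10.43, 10.69 and 9.96 in TLS, 10.29, 10.81 and 10.07 in MLS, 9.64, 9.70 and 9.88 in PREANTRAL and 8.18, 8.54 and 7.99 in ANTRAL. The lowest secondary array, TLS repeat 3, lay just above the highest preantral array, and the antral arrays lay lowest. The 250 bases before the start of Angptl1 are shown as the promoter of the gene with the highest score, at chr1:156838773-156839022 on the plus strand of GRCm38.p6, from RefSeq. None of the 7 motifs searched, listed further on, occurs in it.
Angptl1: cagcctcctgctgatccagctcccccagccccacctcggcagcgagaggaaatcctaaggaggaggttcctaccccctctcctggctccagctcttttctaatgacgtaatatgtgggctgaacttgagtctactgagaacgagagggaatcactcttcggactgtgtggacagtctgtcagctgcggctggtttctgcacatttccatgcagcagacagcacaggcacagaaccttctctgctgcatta

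Tmem100, a membrane protein known from endothelium as a target of BMP9 and ALK1 signalling, had log2 levels of 5.66, 6.05 and 5.80 in PMD3, 7.42, 6.996 and 7.24 in PMD4, 8.12, 7.63 and 7.38 in PRIMARY, 9.18, 8.51 and 8.22 in TLS, 9.04, 8.50 and 9.28 in MLS, 7.90, 7.82 and 7.02 in PREANTRAL and 6.35, 6.25 and 6.01 in ANTRAL. Its secondary arrays all lay above the others, TLS repeat 3 by 0.10 over the highest primary array. The summed intensity of 19 endothelial markers ran a different course, with 7838 to 8767 in PMD3, 3020 to 4169 in PRIMARY, 5461 to 7407 in TLS, 8606 to 11119 in MLS, 5586 to 7681 in PREANTRAL and 10653 to 11315 in ANTRAL. All 19 markers were detected in MLS, 18 in TLS and 14 in PRIMARY. Their part in the Tmem100 level was not tested.

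Stra6, the cell-surface receptor that takes up vitamin A from retinol-binding protein, had log2 levels of 6.12, 7.29 and 6.14 in PMD3, 6.80, 6.31 and 6.27 in PMD4, 5.77, 6.50 and 6.86 in PRIMARY, 7.37, 9.13 and 6.64 in TLS, 7.94, 8.35 and 8.28 in MLS, 6.82, 6.80 and 6.97 in PREANTRAL and 5.45, 5.43 and 5.62 in ANTRAL. Its TLS arrays spanned 2.49 log2 units, the widest of any member, and TLS repeat 3 lay below the 3 preantral arrays. The MLS arrays lay close together and above all arrays outside the secondary stages.

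Among the other members of the group, Angptl4, a secreted inhibitor of lipoprotein lipase, had 11.95, 12.14 and 11.79 in TLS and 11.50, 11.44 and 11.72 in MLS, against 11.42, 11.40 and 11.39 in PRIMARY and 11.19, 11.39 and 11.14 in PREANTRAL. An antral array of Angptl4, at 11.54, lay above MLS repeats 1 and 2, so the secondary arrays were not separate from all others. Apcdd1, a membrane inhibitor of Wnt signalling, had 8.39, 8.42 and 7.87 in TLS and 8.01, 7.94 and 8.19 in MLS, against 7.48, 7.90 and 7.79 in PRIMARY. Igfbp7, a secreted protein that binds insulin-like growth factors weakly, had 13.58, 13.06 and 13.37 in TLS and 13.64, 13.36 and 13.64 in MLS, against 13.14, 13.34 and 12.46 in PREANTRAL. The stage next in level for Igfbp7 was ANTRAL, at 13.17, 13.11 and 12.94. Its TLS repeat 2 lay below arrays of the antral, preantral and PMD4 stages. Ptprg, a receptor-type tyrosine phosphatase, had 6.90, 6.73 and 6.68 in TLS and 6.85, 7.03 and 6.68 in MLS, the lowest just above a preantral array at 6.67. Smo, the signal transducer of the hedgehog pathway by which granulosa cells address theca cells, averaged 9.44 ± 0.40 in TLS and 9.49 ± 0.17 in MLS, against 9.33 ± 0.20 in PMD4 (SD, n = 3 each). Other probes of Smo did not peak in the secondary stages, with scores of -0.24, highest in PMD3, and -0.09, highest in ANTRAL. The group also held Flrt3, an adhesion protein, the basement membrane chains Lamb2 and Col4a5, the collagen-binding integrin Itga11, the EGF receptor ligand Hbegf, Fgfbp3 and Ramp3, with scores between 0.07 and 0.20.

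Of transporters and channels, Aqp9, a channel for water and glycerol, stood farthest from the other stages on the normalised intensities. Its log2 levels were 4.41, 4.51 and 4.45 in PMD3, 4.65, 4.47 and 4.39 in PMD4, 5.44, 5.86 and 5.74 in PRIMARY, 7.41, 6.74 and 6.47 in TLS, 6.75, 7.07 and 7.37 in MLS, 5.44, 5.91 and 5.74 in PREANTRAL and 4.67, 4.97 and 4.58 in ANTRAL. It was the single member whose lowest secondary array exceeded the highest other array by over 0.5 log2 units, and no array of the PMD3, PMD4 or ANTRAL stage detected it. Detection on 2 of the 3 antral arrays was imputed from the signal rank, here and in all statements on antral detection. Slc18a2, the transporter that loads monoamines into vesicles, had 7.49, 7.91 and 7.37 in PMD3, 7.93, 7.82 and 8.13 in PMD4, 9.05, 9.36 and 9.44 in PRIMARY, 9.28, 10.14 and 9.75 in TLS, 10.28, 10.51 and 9.53 in MLS, 8.77, 8.70 and 8.90 in PREANTRAL and 4.89, 5.09 and 4.91 in ANTRAL. Its TLS arrays overlapped with the primary ones, and no antral array detected it. On the deposited values the scores were 0.36 for Slc18a2, 0.32 for Aqp9 and 0.13 for Slc38a2, an amino acid transporter.

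**Figure D2:**
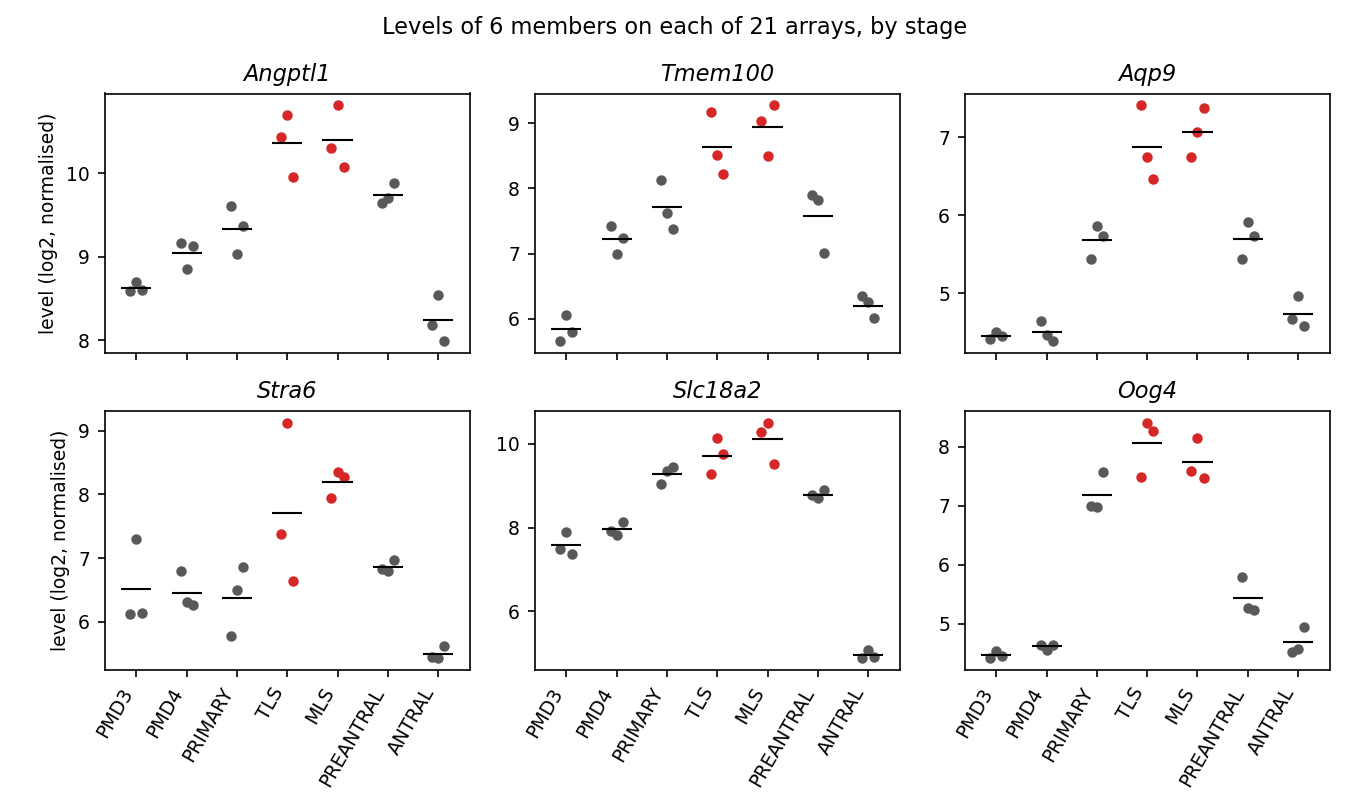
Normalised log2 level of 6 members on each array (points, 3 per stage) with the stage mean (bars), in order of development, the TLS and MLS arrays in red. Aqp9 rose furthest above its neighbours, at 2.26-fold over the next stage, and Stra6 had TLS arrays 2.49 log2 units apart.

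Next come Oog4 and Cphx1, known from the oocyte, and Serpinb12, which was called alike in the comparisons below. Members known from the oocyte were not counted as a group. Oog4, an oogenesin of the PRAME-like family that mouse oocytes express, had 4.42, 4.54 and 4.45 in PMD3, 4.64, 4.56 and 4.65 in PMD4, 6.99, 6.98 and 7.58 in PRIMARY, 7.49, 8.41 and 8.26 in TLS, 7.59, 8.15 and 7.47 in MLS, 5.80, 5.26 and 5.24 in PREANTRAL and 4.53, 4.57 and 4.95 in ANTRAL. Primary and secondary arrays overlapped, and no whole-ovary or antral array detected it. Cphx1, a homeobox gene of the oocyte and early embryo, had 8.41, 8.69 and 8.38 in PRIMARY, 8.61, 8.76 and 8.33 in TLS, 8.08, 8.92 and 8.74 in MLS and 6.98, 6.71 and 6.77 in PREANTRAL. Its arrays overlapped over the first 3 of these stages. Serpinb12, a serine protease inhibitor of the serpin family, had 8.39, 8.16 and 8.54 in PRIMARY, 8.83, 8.22 and 9.16 in TLS, 8.58, 8.49 and 8.82 in MLS and 6.72, 6.74 and 6.53 in PREANTRAL. The promoters of these 3 genes are shown because all 3 were called in the comparisons below as higher in PRIMARY than in PMD4, lower in PREANTRAL than in PRIMARY and lower in ANTRAL than in PREANTRAL. They are the 250 bases before each start in GRCm38.p6, from RefSeq, with motif matches in capitals: Oog4 at chr4:143450325-143450574 on the minus strand, Cphx1 at chr14:25942294-25942543 on the plus strand and Serpinb12, the first of 2 listed starts, at chr1:106934199-106934448 on the plus strand.
Oog4: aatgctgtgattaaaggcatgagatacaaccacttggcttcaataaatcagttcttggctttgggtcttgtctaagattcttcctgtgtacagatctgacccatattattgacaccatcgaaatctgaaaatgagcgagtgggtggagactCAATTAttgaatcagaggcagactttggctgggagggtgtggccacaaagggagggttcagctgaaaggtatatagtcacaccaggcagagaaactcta
Cphx1: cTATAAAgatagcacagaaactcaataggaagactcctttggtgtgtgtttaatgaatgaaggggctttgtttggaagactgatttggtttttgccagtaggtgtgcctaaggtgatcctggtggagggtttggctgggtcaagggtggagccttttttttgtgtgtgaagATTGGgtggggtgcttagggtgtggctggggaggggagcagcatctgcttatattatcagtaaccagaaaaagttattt
Serpinb12: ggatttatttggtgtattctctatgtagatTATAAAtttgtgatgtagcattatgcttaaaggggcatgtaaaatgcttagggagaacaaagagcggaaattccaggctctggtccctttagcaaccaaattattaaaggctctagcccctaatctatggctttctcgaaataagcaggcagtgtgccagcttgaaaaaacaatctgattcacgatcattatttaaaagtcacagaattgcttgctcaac

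The capitals in Oog4 mark TAATTG, the type of site bound by the oocyte homeobox factor NOBOX, on the reverse strand. Those in Cphx1 mark TATAAA, at the far end of the window, and, on the reverse strand, CCAAT. Those in Serpinb12 mark TATAAA, 220 bases before the start. RefSeq listed promoters for 86 of the 100 members. Over both strands of these windows, TATAAA occurred in 9.30% of members, against 13.3% of the 12484 genes on the array with a promoter. CCAAT occurred in 40.7%, against 39.6%, the GC box GGGCGG in 58.1%, against 50.1%, and the E box CACGTG in 6.98%, against 8.38%. TAATTG occurred in 11.6%, against 7.43%, CAAGGTCA, a site type of NR5A receptors, in 1.16%, against 1.23%, and TGTTTAC, a forkhead site type, in 1.16%, against 3.25%. A gene counted where any of its listed windows matched, CCAAT and the reverse of TAATTG can overlap and were counted each on its own, and a match is a description of the letters only.

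Of 113 scored genes in 11 lists of cell type markers, 0 were members, beside 1.35% of all scored genes. In a set of this size 0 is near that share, so nothing is read from the count. The oocyte list had 18 scored genes, 0 of them with a score above 0, and the granulosa list had 19 with 0 above 0. In the theca and interstitial list 2 of 11 were above 0, the highest Insl3 at 0.03, and no other of the 11 lists had any. Beside the 3.18% of all scored genes above 0, counts of 0 in such short lists are near that share. The summed intensity of the 20 oocyte markers was 111458 to 118652 in PMD4, 153019 to 155305 in PRIMARY, 98019 to 123285 in TLS, 69122 to 87160 in MLS, 19813 to 28791 in PREANTRAL and 6477 to 12205 in ANTRAL. All 20 were detected up to PREANTRAL and 19 in ANTRAL. That of the 20 granulosa markers was 70622 to 78263 in PRIMARY, 80140 to 115353 in TLS, 88752 to 104025 in MLS and 126206 to 138525 in PREANTRAL, with 19 of 20 detected in each of these stages. The oocyte sum was thus highest in PRIMARY and the granulosa sum in PREANTRAL, on either side of the secondary stages. Over all 19 lists, 177 genes were scored and 4 were members: Igfbp7, Smo, Mcm6, a subunit of the replicative helicase, and Klf4, a zinc finger factor that responds early to stimulation. Beside the 1.35% of all scored genes, nothing is read from this count either.

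Genes of the ribosome and of translation gave 12 members, a group drawn after the values were seen. They were the ribosomal protein genes Rps16, Rpl38, Rps21, Rpl23, Rps27, Rps19, Rpl3, Rps9 and Rpl34, with Eef1b2, a subunit of elongation factor 1, Naca, which meets the nascent chain, and the helicase Eif4a2. Of 46 cytosolic ribosomal protein genes scored, 9 were members, or 19.6%, beside 1.35% of all scored genes. On the normalised intensities 8 of the 9 were not chosen again, Rps16 alone coming back, and 2 of the 9 came back in all 21 runs with an array left out. The median score of the 46 was -0.06 beside -0.32 over all. Rps16 led them with 13.50, 13.79 and 13.40 in TLS and 13.50, 13.53 and 13.55 in MLS, against 13.21, 13.28 and 13.45 in PRIMARY and 13.23, 13.42 and 13.41 in PREANTRAL. Its TLS repeat 3 lay below arrays of both neighbouring stages. Rpl38 had 14.97, 14.94 and 14.87 in TLS and 14.97, 14.87 and 14.94 in MLS, against 14.85, 14.91 and 14.85 in PMD4, the next stage on this scale. An antral array, at 15.06, lay above all 6 secondary ones. Such probes are near the top of the scale, where intensities can saturate, and ribosomal genes have many processed copies, which the probes may not tell apart. Eef1b2 had 10.03, 11.43 and 11.25 in TLS and 10.68, 10.90 and 10.50 in MLS, with PMD3 repeat 2 at 11.23 inside that range.

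Of regulators of chromatin, transcription and RNA, 14 members were counted, with scores between 0.05 and 0.27. Osr2, a zinc finger factor of limb and palate development, led them with 10.94, 10.09 and 10.52 in TLS and 10.81, 10.94 and 11.07 in MLS, against 10.60, 10.64 and 9.47 in PREANTRAL, so that these stages overlapped. Slirp, which stabilises mitochondrial messenger RNA, had 8.92, 9.59 and 9.19 in TLS and 9.30, 9.54 and 8.97 in MLS, against 8.73, 8.99 and 9.10 in PREANTRAL. The splicing factor Srsf2 averaged 12.15 ± 0.34 in TLS and 11.85 ± 0.23 in MLS, against 11.73 ± 0.08 in PREANTRAL (SD, n = 3 each). Klf4 had 8.58, 9.40 and 8.78 in TLS and 7.34, 9.36 and 6.64 in MLS, against 7.39, 8.54 and 7.46 in PMD4. It was high on the TLS arrays and on MLS repeat 2 alone among the MLS arrays, and on this scale its PMD4 mean of 7.80 lay above its MLS mean of 7.78. The summed intensity of the list of immediate early and stress genes was 52687 to 58261 in TLS and 24173, 26980 and 57382 in MLS, the last on repeat 2, and 33497 to 55997 in PMD4, 33022 to 34740 in PRIMARY, 30385 to 33274 in PREANTRAL and 28037 to 46088 in ANTRAL. PMD4 repeat 2 lay inside the TLS range. Its part in the Klf4 level was not tested.

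Metabolic genes gave 8 members and the other 48 fell into no group. St3gal5, the enzyme that makes the ganglioside GM3, had 12.24, 12.53 and 12.19 in TLS and 12.43, 12.21 and 12.26 in MLS, against 11.83, 12.11 and 12.23 in PRIMARY. Hsd17b11, a short-chain dehydrogenase of lipid droplets, had 10.15, 9.45 and 10.06 in TLS and 9.93, 10.13 and 10.00 in MLS, against 9.71, 9.75 and 9.63 in ANTRAL. Crls1, the cardiolipin synthase of mitochondria, averaged 9.51 ± 0.60 in TLS and 9.38 ± 0.47 in MLS, against 9.14 ± 0.05 in PRIMARY (SD, n = 3 each).

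Stard8, a protein with a START lipid-transfer domain, had 8.94, 8.88 and 8.53 in TLS and 8.73, 8.85 and 8.88 in MLS, above 8.37, 8.48 and 8.05 in PRIMARY and 8.06, 8.25 and 7.95 in PREANTRAL. Atg13, part of the complex that starts autophagy, had 9.05, 8.82 and 8.77 in TLS and 8.86, 8.89 and 9.09 in MLS, above 8.66, 8.59 and 8.53 in PRIMARY. In both genes the 6 secondary arrays lay above every other array, while the PMD3 arrays of Stard8, at 7.23, 8.24 and 7.67, lay far apart. Ncald, a neuronal calcium sensor, had 8.01, 8.54 and 7.93 in TLS and 7.95, 8.20 and 8.30 in MLS, against 7.51, 7.96 and 7.14 in ANTRAL. Of the dim members, Pate14 had 6.40, 6.58 and 6.27 in TLS and 6.63, 7.06 and 6.64 in MLS, against 5.29, 5.52 and 6.14 in PRIMARY, and the kinase Stk32c had 6.54, 6.81 and 5.82 in TLS and 6.06, 6.63 and 6.47 in MLS, against 5.90, 5.62 and 5.38 in PREANTRAL. Pate14 separated from all other arrays and Stk32c did not. Scores of the remaining genes among the first 30, Nedd4l, Ptma, Cnst, Arhgap29 and Abhd16a, lay between 0.14 and 0.20.

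**Figure D3:**
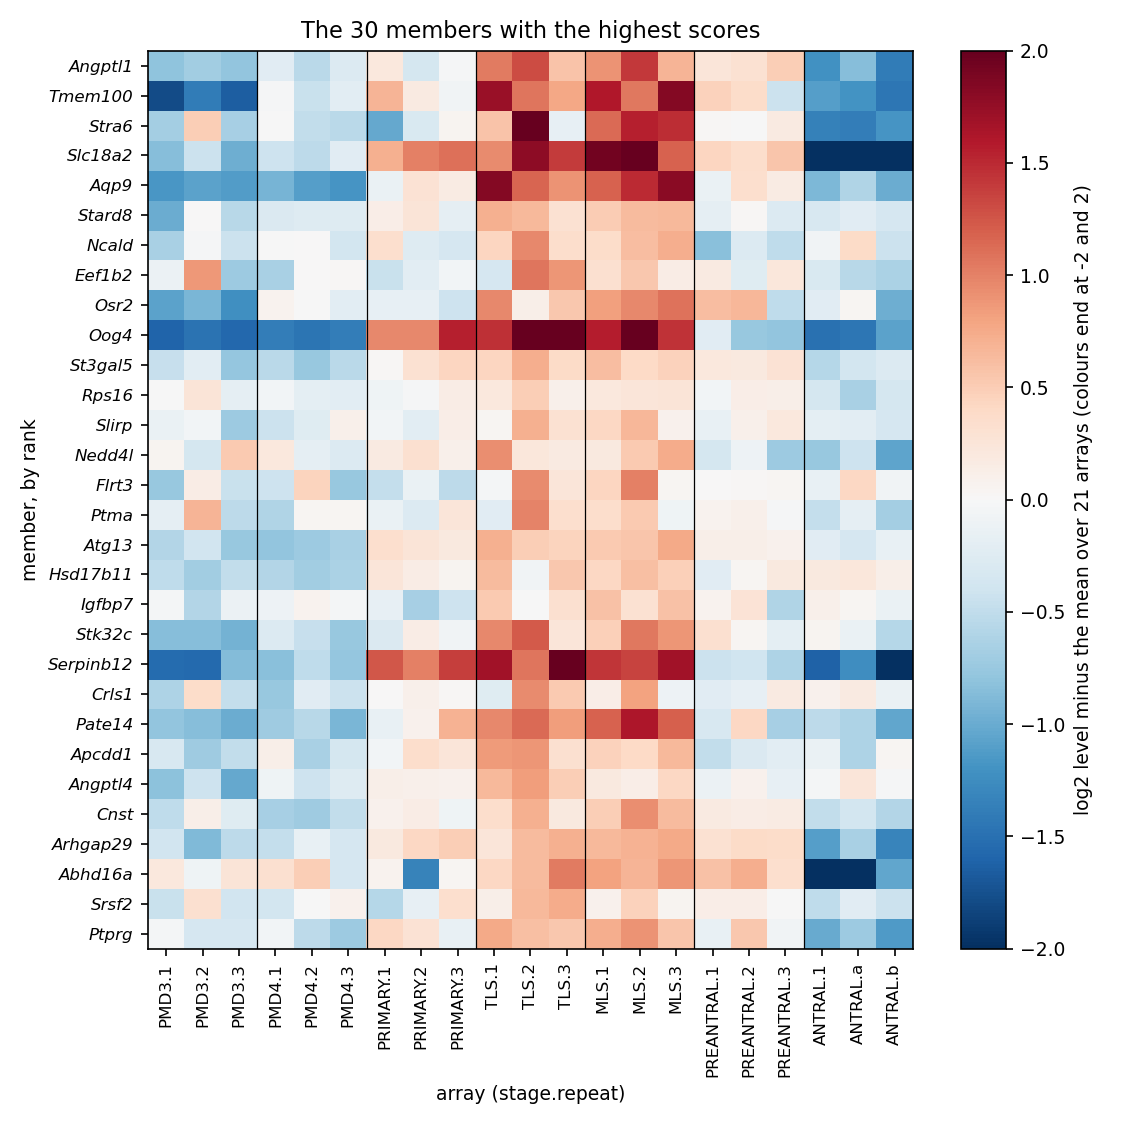
Log2 level of the 30 members with the highest scores, each minus its mean over the 21 arrays, by array in order of development. The TLS and MLS columns are mostly red by construction, and Slc18a2 reaches the end of the colour scale in the 3 antral arrays. Arrays ANTRAL.a and ANTRAL.b share a column name in the signal table, so their repeat numbers are not known.

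TLS repeat 2 was the highest of the 3 TLS arrays in 50 members, and in 2914 of the 7422 scored genes, or 39.3%. In 28 members, and in 1037 of the 7422 scored genes, repeat 2 was highest in PMD3, TLS and MLS alike, among them Angptl1, Stra6, Slc18a2, Oog4, Eef1b2, Ptma and Klf4. With the choice repeated without TLS repeat 2, 70 of the 100 members came back. Without MLS repeat 2 it was 69, the lowest of the 21 arrays left out in turn, without MLS repeat 3 it was 76 and without TLS repeat 1 it was 80. Without repeat 2 of PMD3, PRIMARY and PREANTRAL it was 91, 91 and 92. A member drops out mainly where the array left out had raised the secondary mean, which the rule fixes. Deviations from the stage mean correlated between TLS and PMD3 arrays of the same number, with r of 0.35, 0.70 and 0.27 over detected probes for numbers 1, 2 and 3, and between MLS and PMD3 arrays with r of 0.12, 0.21 and 0.09. These values describe the arrays, and what they share was not tested. Among arrays outside the secondary stages, PREANTRAL repeat 3 mattered most, with 82 members back. The labels of PREANTRAL repeat 2 are partly antral, and without PRIMARY repeat 3, whose labels also disagree, 89 came back. Members chosen again in all 21 runs numbered 22, and 21 of these also came back on the normalised intensities: Angptl1, Tmem100, Stra6, Slc18a2, Aqp9, Stard8, Ncald, Oog4, St3gal5, Rps16, Slirp, Atg13, Hsd17b11, Stk32c, Serpinb12, Pate14, Apcdd1, Angptl4, Ptprg, Tuba3b and 4930524B15Rik.

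**Figure D4:**
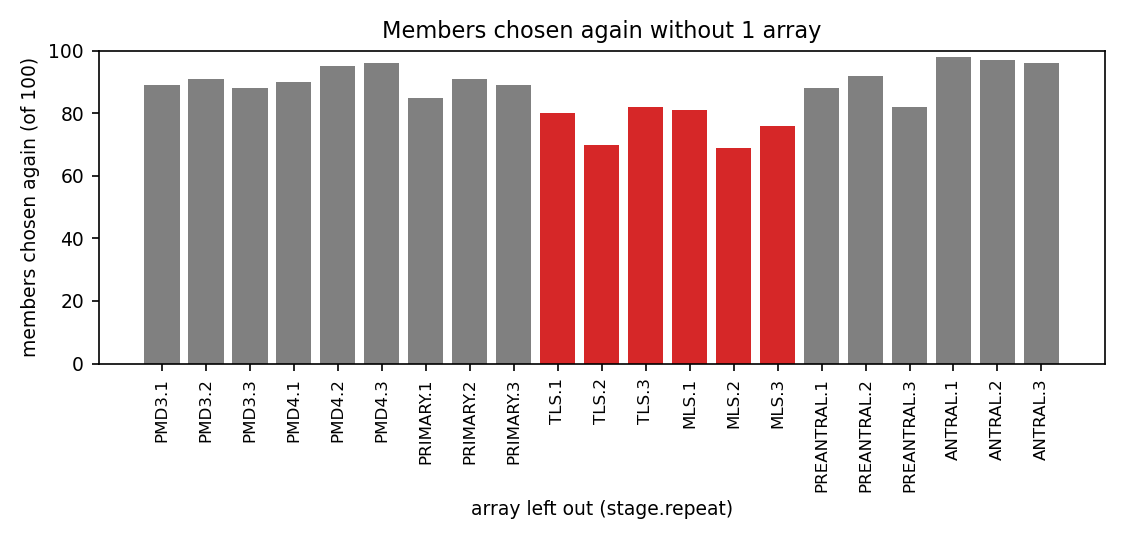
Number of the 100 members chosen again when 1 array was left out, for each of the 21 arrays, with TLS and MLS arrays in red. Counts ran between 69 without MLS repeat 2 and 98 without ANTRAL repeat 1.

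A second probe of the same gene often did not show the peak. Other probes were present for 42 members, 68 in all, and 49 of these were detected on all 6 secondary arrays. Of the 49, 8 had a score above 0 and 22 had their highest stage mean in TLS or MLS. Among all scored genes, each with its best probe, 3.18% had a score above 0. How many of them had their highest mean in TLS or MLS was not counted. The widest gap was that of Rpl38, whose member probe scored 0.13 and whose other probe scored -1.28, highest in PREANTRAL. For Rab7, a GTPase of late endosomes, the scores were 0.12 and -0.76, for Naca 0.12 and -0.73, for Crls1 0.17 and -0.63, for Rps19 0.09 and -0.53, for Slc38a2 0.13 and -0.49, for Mcm6 0.09 and -0.50 and for Eef1b2 0.27 and -0.28. Only the probe with the highest score was kept by the rule, so the other probe had to score lower.

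Comparisons between stages that the score does not order were then tested in 1 limma fit over all 21 arrays, with p-values adjusted by Benjamini-Hochberg over 15923 detected probes and called at 0.05. The 5 other stage means entered the score as upper limits, so a gene far above its secondary level in any of them could not be a member. All tested probes had no such limit. These comparisons were thus not apart from the choice of members, and the splits below describe the members only. Sizes depend on the background correction: all 20 differences of single genes named by size were smaller on the deposited values and without background correction, by more than 1.5 times in fold for 15 and 12 of them. All 100 members passed the filter on dim probes, which their detection on the secondary arrays alone ensures.

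For MLS against TLS the score takes the lower of both means, which favours genes alike in these stages, so the counts are a description of the members and nothing is read from them. None of the 100 members passed after adjustment, where 2.56% of all tested probes were called, 1.34% higher and 1.22% lower. At an unadjusted p under 0.05, 4 members passed, where 16.3% of all tested probes did, and the deposited values also gave 0. The members' log2 differences, MLS minus TLS, ran from -1.14 to 0.72 with a median of -0.01, beside 0.01 over all probes, and 48 of 100 were above 0. In 3 settings that left arrays out, 1 member passed. Without PMD3 repeat 2 and TLS repeat 2, Stra6 was 1.18 ± 0.26 log2 units (SE) higher in MLS, adjusted p = 0.0213. Without MLS repeat 2, Klf4 was lower in MLS by a log2 difference of -1.94 ± 0.43 (SE), adjusted p = 0.0264. Without TLS repeat 1, Slc38a2 was lower by a log2 difference of -0.83 ± 0.23 (SE), adjusted p = 0.0450. Spread between the 3 arrays of a stage was wide, with a median range over members of 0.61 log2 units in TLS and 0.41 in MLS. TLS repeat 1 correlated more closely with MLS arrays than with its own stage (mean r over probes 0.978 and 0.971), and TLS repeat 3 more closely with PRIMARY arrays than with its own (0.980 and 0.972).

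PRIMARY follicles were higher than PMD4 ovaries in 29 members and lower in 0, where 14.6% of all tested probes were called higher and 14.7% lower. By the rule both stage means of a member lay below its secondary means on the deposited values, so the split was not apart from the choice. The members' median log2 difference was 0.19, beside 0.01 over all probes, and 69 of 100 were above 0. At the level of single genes, Cphx1 averaged 8.49 ± 0.18 in PRIMARY and 5.56 ± 0.05 in PMD4 (SD, n = 3 each), a 7.62-fold rise with adjusted p = 3.70e-07. The rise of Cphx1 was 2.17-fold on the deposited values and 3.26-fold without background correction. Ctsh, the lysosomal protease cathepsin H, had 11.56, 11.42 and 11.41 in PRIMARY and 9.31, 8.97 and 9.17 in PMD4, a 4.97-fold rise with adjusted p = 1.77e-09. Oog4 was at least 4.33-fold higher in PRIMARY than in PMD4, where no array detected it (adjusted p = 2.83e-08), and 1.55-fold higher on the deposited values. Primary and day 4 arrays did not overlap in any of these 3 genes, which were chosen for large rises. The share of all tested probes without overlap was not counted, here or below. Serpinb12 rose 3.79-fold, Pdzph1 3.27-fold and Daw1, known from the assembly of ciliary dynein, at least 2.15-fold. Such bounds hold on the normalised scale only, and Daw1 rose 1.25-fold on the deposited values. Among the others called were Slc18a2, 2.51-fold higher, Lamb2, 2.26-fold higher, and Aqp9, at least 1.53-fold higher. Of the 29, 3 came from the 15 secreted, matrix and receptor genes and 0 from the 12 translation genes. These groups were drawn after the values were seen, and nothing is read from the counts. Both Tuba3a and Tuba3b rose, alpha-tubulin genes so alike that their probes may share signal. Isolated follicles and whole ovaries also differ in the tissue around the follicle, which cannot be told apart from stage here. Markers of several cell types moved in the same comparison. Oocyte markers were higher in 10 of 20 and lower in 2, and granulosa markers higher in 11 of 20 and lower in 1. Stroma and matrix markers were lower in 22 of 25, endothelial ones in 17 of 19 and leukocyte ones in 10 of 12. The part of these lists in the rises was not tested. Without PRIMARY repeat 3, 25 members were higher and 0 lower.

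PREANTRAL follicles were lower than PRIMARY follicles in 12 members and higher in 1, where 16.5% of all tested probes were called lower and 18.3% higher. The members' median log2 difference was 0.00, beside 0.06 over all probes. The share of called members, 13 of 100, was below the 34.8% of all tested probes. Median scaling in place of quantile normalisation moved the median of all probes to -0.05 and the share of higher among all calls to 32.0%, against 52.5%, and gave 0 higher and 16 lower members. Tuba3a had 6.65, 6.36 and 5.92 in PREANTRAL and 8.67, 8.16 and 8.58 in PRIMARY, a 4.47-fold fall with adjusted p = 1.34e-06, and 1.93-fold on the deposited values. Cabs1, a calcium-binding protein known from spermatids, was at least 2.71-fold lower and was detected on no preantral array (adjusted p = 1.24e-07), and 1.32-fold lower on the deposited values. Oog4 fell 3.37-fold, Serpinb12 3.24-fold, Cphx1 3.18-fold and Daw1 at least 1.88-fold, and 1.21-fold on the deposited values. Preantral and primary arrays did not overlap in these 6 genes, which were chosen for large falls. All 20 oocyte markers were lower in PREANTRAL in the same fit, with a median log2 difference of -2.74, and their part in these falls was not tested. The single higher member was Abhd16a, a lipase of phosphatidylserine, with 9.78, 9.93 and 9.54 in PREANTRAL and 9.26, 7.87 and 9.23 in PRIMARY, adjusted p = 0.0327. Its value rests on PRIMARY repeat 2, without which the log2 difference was 0.50, against 0.96, and the call was lost. Without PREANTRAL repeat 2, 12 members were lower and 0 higher. Without PRIMARY repeat 3, 9 were lower and 3 higher.

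The 10 members called both higher in PRIMARY than in PMD4 and lower in PREANTRAL than in PRIMARY were C87436, Cabs1, Cntnap4, Cphx1, Daw1, Oog4, Pdzph1, Plce1, Serpinb12 and Tuba3a. Both tests share the primary arrays, so a high value there moves them together, and 8.16% of all tested probes had both calls. In each of the 10 the primary mean lay above both the day 4 and the preantral means, and by the rule below the secondary means of the deposited values. Members called in none of the 4 comparisons numbered 55, where 42.6% of all tested probes were called in none.

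ANTRAL follicles of primed mice were lower than PREANTRAL follicles in 25 members and higher in 1, where 13.7% of all tested probes were called lower and 12.5% higher. Both stages entered the rule as upper limits, so this split too was not apart from the choice. The members' median log2 difference was -0.27, beside -0.04 over all probes, and 24 of 100 were above 0. With median scaling the counts were 14 lower and 2 higher, and the share of higher among all called probes was 65.4%, against 47.6%. Slc18a2 was at least 12.0-fold lower, with 3 antral arrays below detection (adjusted p = 5.72e-11). Its fall was 2.69-fold on the deposited values and 4.42-fold without background correction. Abhd16a had 6.72, 6.98 and 8.16 in ANTRAL and 9.78, 9.93 and 9.54 in PREANTRAL, a 5.51-fold fall with adjusted p = 1.12e-05, and 2.75-fold on the deposited values. Mcm6 had 8.73, 9.28 and 8.67 in ANTRAL and 10.63, 10.94 and 10.60 in PREANTRAL, a 3.56-fold fall with adjusted p = 4.95e-07. Arrays of the 2 stages did not overlap in these genes, which were chosen for large falls. Mcm6 stood in a list of cell cycle genes of which 13 of 16 were lower and 0 higher. Tuba3b fell 3.02-fold and Angptl1 2.83-fold, with the 3 antral arrays of Angptl1 at 8.18, 8.54 and 7.99 and the 3 preantral ones at 9.64, 9.70 and 9.88. Tmem100 fell 2.60-fold and Stra6 2.58-fold. Cphx1 was also called lower (adjusted p = 0.00102), with 1 of 3 antral arrays detecting it at 6.34, 4.83 and 4.67, and its log2 difference lay between -2.07 and -1.24 with 1 antral array left out. Of the 25 falls, 5 came from the 15 secreted, matrix and receptor genes. The 12 translation genes gave 3, Rps16, Rps27 and Naca, and nothing is read from these counts. The single rise was that of Cmtm8, a membrane protein of the MARVEL type, at 1.42-fold and adjusted p = 0.0479, a call lost in 6 of the alternatives tried. Oocyte markers were lower in 16 of 20 and higher in 0, and their part in these falls was not tested. Without PREANTRAL repeat 2, 19 members were lower and 1 higher. Cphx1, Fgfbp3, Oog4 and Serpinb12 were lower in this comparison and in that of PREANTRAL with PRIMARY, which share the preantral arrays, and 3.49% of all tested probes had both calls.

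**Figure D5:**
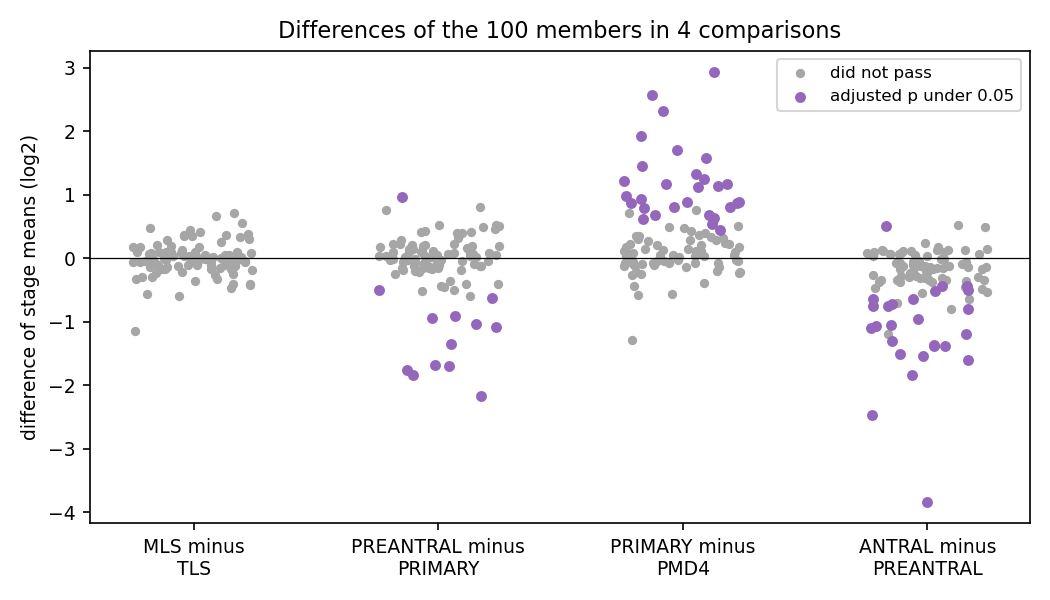
Difference of stage means for each of the 100 members (points, log2) in 4 comparisons, with members past the adjusted p of 0.05 in purple. Counts past it were 0 for MLS minus TLS, 13 for PREANTRAL minus PRIMARY, 29 for PRIMARY minus PMD4 and 26 for ANTRAL minus PREANTRAL.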

How the data were processed

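Per the labels' protocols, RNA of pooled ovaries or follicles was amplified, labelled and hybridised to Illumina bead arrays. The authors deposited 3 kinds of value. Per the file headers, 1 table holds the average bead intensity of 25697 probes on 21 arrays, neither background-corrected nor normalised. Beside each intensity the authors deposited a detection p-value. The second table holds 23286 probes as deposited log2 values of unstated background correction, with limma named in the submitters' processing notes. These log2 values correlated with the re-normalised ones, gene-centred, at r of 0.851 to 0.898 over 19 arrays. Directions were alike for the 20 differences named by size, but not for all small differences. Rpl38 had means of 14.60 in ANTRAL and 14.67 in PREANTRAL on the deposited values, against 14.82 and 14.74 on the re-normalised ones. Differences of dim genes were compressed on the deposited scale, and the medians of its columns lay between 7.71 and 7.74.

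Membership used the deposited log2 values. For levels and tests, intensities were corrected with normexp and quantile-normalised (neqc of limma 3.58.1 in R 4.3.3, offset 16, negative controls inferred from the detection p-values). The 2 detection columns of antral arrays that share a name were not used. Their p-values were taken from the mean at the same signal rank on the other 19 arrays. Probes detected (p under 0.05) on at least 3 arrays were fitted with lmFit and eBayes, a mean per stage, and tested on simulated data first. A stage in which no array detected a probe gives only a bound, set at the lowest detected signal of each array. The bound holds on the normalised scale, and folds on the deposited values can be smaller. Detection covered 48.1% to 54.3% of probes per array, and 3 arrays a stage limit the precision. Probe symbols came from the platform annotation, which gave 21857 probes 1 symbol and 0 several. The members, gene lists, role groups and tests were chosen with earlier results of these data known.

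Genes were named by rule: the 30 highest scores, members in a listed gene set, those next to the limit, the 6 largest called rises and falls per comparison, the widest TLS range and the largest gaps to another probe. Genes given beyond these, such as Lamb2, Ramp3 or Rps27, were chosen after their values were seen. Alternatives were no background correction, median scaling, the deposited values, no filter, 1 probe per gene, only the stages compared, leaving out arrays and repeat number as a block.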

Additional observations from a re-analysis of the deposited data

How the results depend on the processing

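Membership depended most on how a stage was summarised: with stage medians 61 of the 100 members were chosen again, with the normalised intensities 68, with detection at 0.01 it was 96, without PMD3 repeat 2 and TLS repeat 2 it was 70, and with 1 array left out between 69 and 98. The count for MLS against TLS was 0, or 1 without PMD3 repeat 2 and TLS repeat 2, and 0 to 1 with 1 array left out. With 1 array left out the other counts lay between 9 and 14 for PREANTRAL against PRIMARY, 25 and 28 for PRIMARY against PMD4, and 20 and 23 for ANTRAL against PREANTRAL. Median scaling gave 16 in the last of these, against 26, and the cause was not tested. Arrays with the same repeat number deviated together with r between -0.05 and 0.18, not above 0.1 in every pair. These values leave out ANTRAL against PREANTRAL, where repeat numbers of antral arrays are not all known. Whether samples of the same number share more than the number was not tested. Between PMD3 and TLS, which were not compared, same-numbered arrays had r of 0.27 to 0.70. With the repeat number as a replicate block the counts were 0 for MLS against TLS, 13 for PREANTRAL against PRIMARY, 29 for PRIMARY against PMD4 and, on the deposited values, 23 for ANTRAL against PREANTRAL. Of 20 single-gene calls named by size, 18 passed the threshold in every alternative and 0 reversed, though 15 changed in fold by over 1.5 times on the deposited values, while Abhd16a (PREANTRAL against PRIMARY) and Cmtm8 (ANTRAL against PREANTRAL) each lost theirs in 6. Groups of 3 arrays are too small for a check of single outlying samples. For dim members such as Aqp9, Oog4 and Pate14, folds against stages in which no array detected them are bounds on the normalised scale only.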
